A study of Homo sapiens with 24 samples.

Results

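Chromosome arm 2p is the short arm of human chromosome 2, and 59 of its genes were chosen by name because they lay spread along the arm and stood higher in MDA-MB-231 fusion cells than in MDA-MB-231 control cells. All 59 were found by gene symbol in a table of 29744 genes, and all 59 were placed on 2p of GRCh38. The choice was made from measured values, so every difference between MDA-MB-231 fusion and control given here for these genes, or for their neighbours on the arm, is a description and not a test. The question asked of them was whether the shift was even along the arm.

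The libraries came from 2 established triple-negative breast cancer lines, the mesenchymal-like MDA-MB-231 and the basal epithelial HCC1806. In each line, cell fusion, mitotic slippage or cytokinesis failure had given a population with a doubled genome, which was sorted by flow cytometry and expanded, and the aneuploid parental cells served as the control. The 8 groups were fusion, slippage, cytokinesis failure and control in each line, with 3 libraries a group, labelled biological replicates. Cells of every group had been seeded at 200000 per well and grown for 48 h with no further treatment. Each route gave 1 population per line, so a difference between groups cannot be told apart from a difference between those particular populations. RNA was read by TAGseq, which counts sequence tags near the 3′ end of polyadenylated RNA, so a value counts transcripts and not their length. Levels and fold changes are scaled to each library, so they are relative to the rest of its RNA and are not amounts per cell. In bulk RNA, a change in every cell and a larger change in some of the cells cannot be told apart.

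Total estimated counts ran from 2455707 to 3837957 per MDA-MB-231 library and from 3060622 to 4030297 per HCC1806 library. VIM, CD44 and AXL together gave 3620 to 4030 CPM (counts scaled to the size of the library) in MDA-MB-231 libraries, and KRT5, KRT14 and CDH1 together gave 0 to 0.312 CPM there, against 512 to 623 CPM in HCC1806 libraries. The same sum of VIM, CD44 and AXL was 1030 to 1530 CPM in HCC1806, carried there by CD44. In HCC1806 libraries CD44 had 3892 to 5666 counts, VIM 0 to 7 and AXL 33 to 67. In MDA-MB-231 libraries CD44 had fewer counts, 1252 to 1813. Markers of fibroblasts summed to at most 6.29 CPM and those of endothelial cells to at most 6.82 CPM in any library. Of the immune markers, CD3E had no count in any library of either line. The summed list, carried by CD68, lay between 87.4 and 108 CPM in MDA-MB-231 fusion and between 110 and 112 CPM in slippage. It lay between 107 and 122 CPM in cytokinesis failure and between 67.8 and 75.8 CPM in control. Its part in the results was not tested. In MDA-MB-231, slippage replicate 3 and cytokinesis failure replicate 1 stood apart from the other replicates of their groups: comparing the counts of replicates pair by pair, chi-square over its degrees of freedom was 2.26 to 2.45 in pairs with either library and at most 1.87 in all other pairs.

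A chromosome arm is not a pathway: its genes share a position, but each is read from its own promoter. The fate that the centromere gives them when whole chromosomes are divided between daughter cells is shared with the other arm. Cells whose genomes have doubled are known for losing and gaining chromosomes and arms as they divide. The 59 genes serve unrelated tasks, from polyamine synthesis (ODC1) and pyrimidine synthesis (CAD) to mismatch repair (MSH6), nuclear export (XPO1) and calcium sensing (CALM2). DNA content and copy number were not analysed here.

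In MDA-MB-231, the 59 genes stood 1.24-fold higher in fusion than in control at the median, a log2 fold change of 0.31, and 56 of 59 had a positive value. At an adjusted p below 0.05 in edgeR's quasi-likelihood test over 11424 genes, 32 of the 59 were called higher and 0 lower, where 9.34% of all tested genes were called higher and 8.11% lower. In 39 of the 59 all 3 fusion libraries lay above all 3 control libraries, and in 2 all lay below, where 17.3% and 17.0% of all tested genes did so. These counts follow from the choice of the genes. The 246 other tested 2p genes had a median of 0.28, with 89 called higher and 8 lower. The 443 tested genes of the long arm, 2q, had a median of -0.14, with 12 called higher and 79 lower, and the median of all genes was -0.0025.

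The share of all counts that fell on tested 2p genes was 2.73 to 2.74% in MDA-MB-231 fusion libraries, 2.27 to 2.29% in slippage, 2.24 to 2.27% in cytokinesis failure and 2.31% in each control library. The 59 genes alone took 0.864% ± 0.007 of counts in fusion, 0.7% ± 0.0126 in slippage, 0.701% ± 0.00764 in cytokinesis failure and 0.704% ± 0.00603 in control (mean ± SD, n = 3 each). For the 59 genes, the fusion libraries stood apart from the other 9 MDA-MB-231 libraries, which overlapped among groups. In HCC1806 the 59 genes took 0.888% ± 0.00586 in fusion, 0.943% ± 0.00436 in slippage, 0.93% ± 0.00551 in cytokinesis failure and 0.944% ± 0.00321 in control, so that fusion was there the lowest of the 4 groups.

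**Figure D1:**
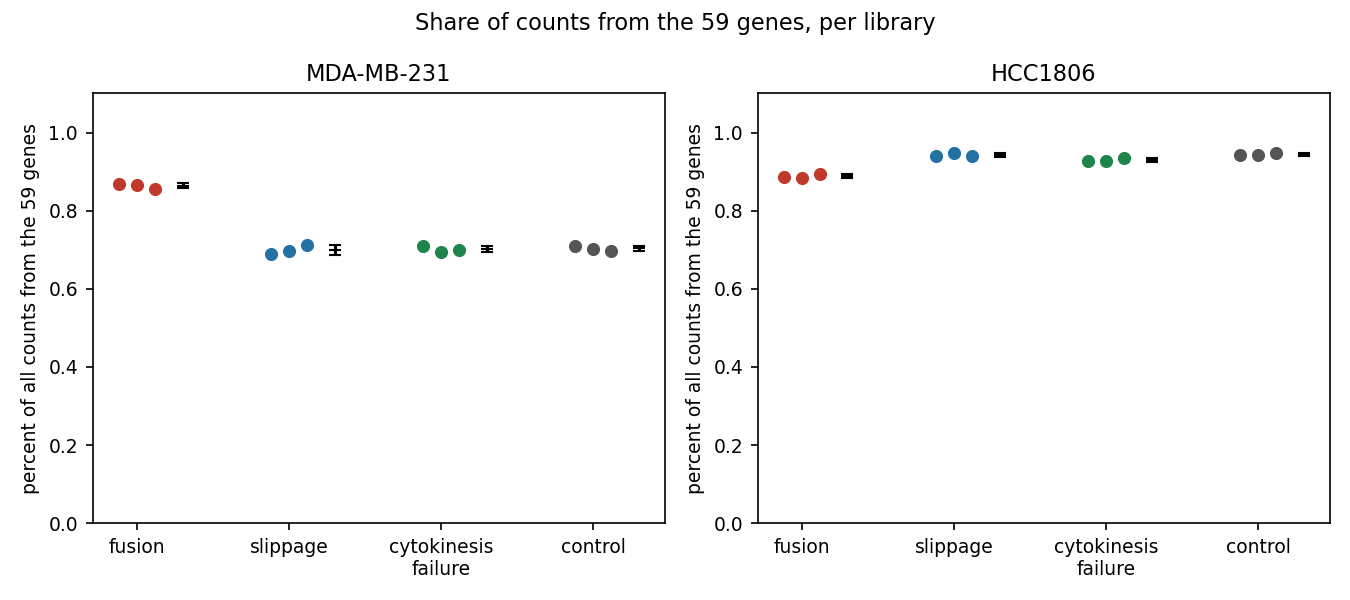
Percent of all counts in a library that fell on the 59 genes of 2p (y axis, from 0), by population (x axis) in MDA-MB-231 and HCC1806; each point is 1 library and the bar beside each group is the mean ± SD of 3. The 3 MDA-MB-231 fusion libraries sit near 0.864%, above the other MDA-MB-231 groups at 0.7 to 0.704%, while the HCC1806 fusion libraries, at 0.888%, sit below the other HCC1806 groups.

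Window medians over all tested genes described the shape of the shift in MDA-MB-231 fusion. From the tip of the arm inward in steps of 10 Mb, the median log2 fold change was 0.36 between 0 and 10 Mb, 0.34 between 10 and 20 Mb, 0.30 between 20 and 30 Mb and 0.27 between 30 and 40 Mb. It was 0.32 between 40 and 50 Mb, 0.30 between 50 and 60 Mb, 0.30 between 60 and 70 Mb and 0.26 between 70 and 80 Mb. The 8 windows thus lay within a narrow band, from 0.258 to 0.363, with 18 to 57 tested genes each. The 59 genes chosen for standing higher in this comparison are among them, so these medians carry that choice in part. Window medians without the 59 are not given here. Over the whole arm, the 246 other tested 2p genes had a median of 0.277. The step came after these 8 windows: between 80 and 90 Mb the median was -0.03, and between 90 and 100 Mb, across the centromere, it was -0.17. No tested gene lay between GCFC2, at 75.7 Mb, and SUCLG1, at 84.4 Mb, so the level between them was not seen. Single libraries, set against the mean of the controls, gave window medians between 0.227 and 0.38 from 0 to 80 Mb.

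Taken as stretches chosen after their values were seen, the 292 tested genes from 0 to 86 Mb had a median of 0.29 (0.285, 0.301 and 0.283 in the 3 fusion libraries), with 121 called higher and 4 lower. The 13 genes from 86 Mb to the centromere had a median of -0.14, with 0 called higher and 4 lower, and the single fusion libraries spread widely there, at -0.12, -0.0225 and -0.287. The 325 genes of 2q up to 210 Mb had a median of -0.18, with 2 called higher and 76 lower, and the 118 genes beyond 210 Mb had 0.05. Low values beyond 86 Mb were also seen in slippage and, up to the centromere, in cytokinesis failure. These comparisons used the same control libraries. From 86 Mb to the centromere the median was -0.219 in slippage over control, with 4 called lower, and -0.121 in cytokinesis failure over control, with 2 called lower. On 2q up to 210 Mb it was -0.13 in slippage over control, with 0 called higher and 34 lower, and -0.0173 in cytokinesis failure over control, with 8 higher and 6 lower. From 0 to 86 Mb the same comparisons had -0.0153 and -0.0413. Slippage against cytokinesis failure, which uses no control library, had -0.109 on 2q up to 210 Mb, with 1 called higher and 22 lower. From 0 to 86 Mb it had 0.028. All 59 chosen genes lay before 70.1 Mb, on the raised side of the step.

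At the step itself, SUCLG1, a subunit of succinyl-CoA ligase, had a log2 fold change of 0.37 ± 0.0741 (SE) at 84.4 Mb, and KCMF1, a ubiquitin ligase, 0.34 ± 0.072 at 85.0 Mb. GGCX, the vitamin K-dependent carboxylase, had 0.36 ± 0.098, and VAMP8, a vesicle fusion protein that ends at 85582031, had 0.27 ± 0.074. Beyond VAMP8 no tested gene of the arm was called higher: RNF181 had 0.00 ± 0.0647, PTCD3 -0.22 ± 0.076, KRCC1 -0.53 ± 0.103 and RPIA, an enzyme of the pentose phosphate pathway, -0.50 ± 0.0859. The order was not free of exceptions, since CAPG, an actin-capping protein that starts before VAMP8, was called lower, at -0.24 ± 0.0543. The other tested genes from SUCLG1 to VAMP8 were not called. TRABD2A had -0.35 ± 0.39, TMSB10 0.32 ± 0.104, TGOLN2 0.17 ± 0.112, RETSAT -0.05 ± 0.108, ELMOD3 0.23 ± 0.253 and MAT2A 0.18 ± 0.0695.

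**Figure D2:**
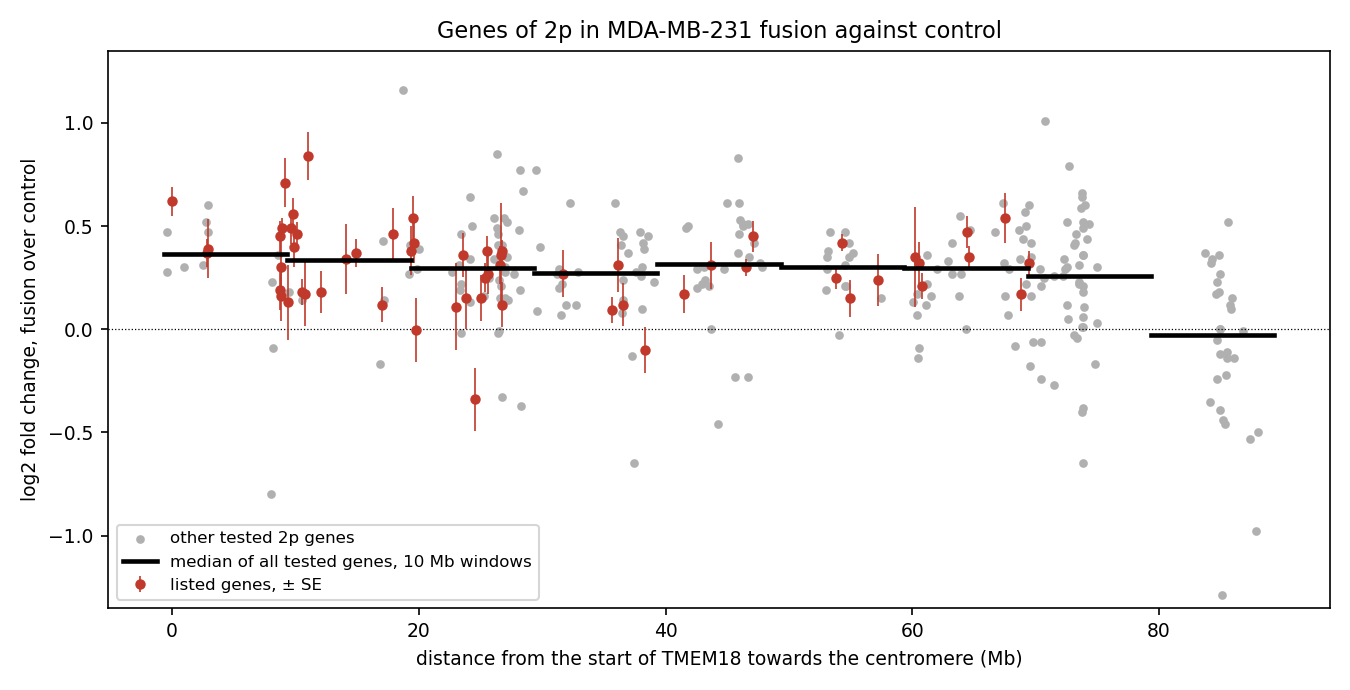
Log2 fold change of MDA-MB-231 fusion over control (y axis) against distance from the start of TMEM18 towards the centromere in Mb (x axis). Red points with bars are the 59 genes ± SE, grey points the other tested 2p genes (2 beyond the plotted range are not drawn) and black lines the medians of all tested genes in windows of 10 Mb, which stay between 0.258 and 0.363 up to 80 Mb and drop to -0.0285 in the next window.

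Single genes spread around the level of the windows. The SD of the 59 log2 fold changes was 0.19, against a median SE of 0.101, and among the 45 genes with a mean of at least 5 log2 CPM it was 0.178 against 0.0835. Over all 59 genes the spread was about as wide where the arm had no raised level. The SD was 0.193 in slippage over control and 0.189 in cytokinesis failure over control, with 12 genes in each more than 2 of their own SE from the median. Among the 45 genes the SD was smaller there than in fusion, at 0.157 in slippage over control and 0.14 in cytokinesis failure over control. Slippage against cytokinesis failure had an SD of 0.161 over the 59 and 0.12 among the 45, with 7 genes more than 2 SE from the median. In fusion, 16 genes lay more than 2 of their own SE from the median of the 59. Above it were TMEM18, YWHAQ, TAF1B, HPCAL1, ODC1, PDIA6, LPIN1, SDC1, RTN4 and RAB1A, and below it ROCK2, SMC6, RHOB, DNMT3A, CRIM1 and SOS1. Pearson's r between position and log2 fold change was -0.141 and Spearman's rho -0.22 across the 59 genes, which share the same 6 libraries and are not independent.

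At the tip, TMEM18, a nuclear envelope protein and the first gene by position (663877 to 677406), had 147, 131 and 133 CPM in MDA-MB-231 fusion, 79.3, 81.0 and 77.9 CPM in slippage, 76.6, 77.0 and 73.1 CPM in cytokinesis failure and 86.7, 91.7 and 89.1 CPM in control. All 3 fusion libraries stood above the other 9, which lay close together, and the log2 fold change of fusion over control was 0.62 ± 0.07. ADI1, an enzyme of methionine salvage, had 0.37 ± 0.0699, and RNASEH1, which cuts RNA in hybrids with DNA, 0.39 ± 0.143.

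Between 9.4 and 9.63 Mb lay ITGB1BP1, which binds the tail of an integrin, CPSF3, the nuclease that cuts pre-mRNA at its 3′ end, the esterase IAH1, the membrane protease ADAM17 and the adaptor YWHAQ. Their log2 fold changes were 0.45 ± 0.0744, 0.19 ± 0.0966, 0.30 ± 0.135, 0.16 ± 0.12 and 0.49 ± 0.0512. YWHAQ had 513, 505 and 497 CPM in fusion, 352, 358 and 391 CPM in slippage, 370, 371 and 345 CPM in cytokinesis failure and 352, 369 and 357 CPM in control, with no overlap between fusion and the rest. IAH1 and ADAM17 overlap on opposite strands, and since strand-aware counting is not stated, their reads cannot be told apart with certainty.

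ITGB1BP1 and CPSF3 are read away from each other, from starts 126 bases apart for the RefSeq windows shown here, which share 225 of their 300 bases (GRCh38.p14, RefSeq). They are printed because these neighbours share most of their window while their log2 fold changes were 0.45 and 0.19, a difference that was not tested. Windows run from 250 bases before to 50 bases after the start, 5′ to 3′ on the gene's own strand, at chr2:9423479-9423778 on the minus strand for ITGB1BP1 and chr2:9423404-9423703 on the plus strand for CPSF3. Capitals mark CCAAT, which reads ATTGG from the opposite strand. They also mark CCGGAAG, which reads CTTCCGG from the opposite strand.
ITGB1BP1: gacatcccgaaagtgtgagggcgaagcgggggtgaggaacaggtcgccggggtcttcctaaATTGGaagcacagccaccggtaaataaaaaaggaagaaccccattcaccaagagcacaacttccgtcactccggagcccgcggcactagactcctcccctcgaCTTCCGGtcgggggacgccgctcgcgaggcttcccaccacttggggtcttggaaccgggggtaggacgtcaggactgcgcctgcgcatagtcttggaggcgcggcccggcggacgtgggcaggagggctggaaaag
CPSF3: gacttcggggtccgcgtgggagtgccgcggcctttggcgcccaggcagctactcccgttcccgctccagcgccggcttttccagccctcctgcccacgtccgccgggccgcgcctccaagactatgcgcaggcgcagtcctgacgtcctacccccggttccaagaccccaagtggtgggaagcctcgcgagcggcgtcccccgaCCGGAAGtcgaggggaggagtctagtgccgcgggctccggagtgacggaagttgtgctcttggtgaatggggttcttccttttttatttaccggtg

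From 9.84 to 12.7 Mb the chosen genes reached their highest values. TAF1B, a subunit of the factor that recruits RNA polymerase I to ribosomal DNA, had 57.1, 45.9 and 46.2 CPM in MDA-MB-231 fusion, 30.7, 40.1 and 36.7 CPM in slippage, 37.5, 36.4 and 33.6 CPM in cytokinesis failure and 29.3, 32.9 and 29.3 CPM in control, a log2 fold change of 0.71 ± 0.118. LPIN1, a phosphatidate phosphatase of lipid synthesis, had 45.3, 52.6 and 62.0 CPM in fusion, 33.4, 37.2 and 38.5 CPM in slippage, 33.3, 28.2 and 33.0 CPM in cytokinesis failure and 31.3, 28.2 and 30.1 CPM in control. At 0.84 ± 0.117 it had the largest log2 fold change of the 59, and every fusion library exceeded every other MDA-MB-231 library.

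ODC1, the rate-limiting enzyme of polyamine synthesis, had 389, 364 and 315 CPM in fusion, 206, 212 and 253 CPM in slippage, 235, 228 and 204 CPM in cytokinesis failure and 237, 252 and 234 CPM in control, a log2 fold change of 0.56 ± 0.0777. The calcium sensor HPCAL1 had 0.49 ± 0.0756, the nucleolar protein NOL10 0.40 ± 0.0984 and the endoplasmic reticulum disulfide isomerase PDIA6 0.46 ± 0.0578. The same stretch also held lower values. KLF11, a zinc finger transcription factor, had 0.13 ± 0.184, the kinase ROCK2 0.18 ± 0.0631, the repressor E2F6 0.17 ± 0.154 and the pseudokinase TRIB2 0.18 ± 0.102.

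Between 14.8 and 20.4 Mb, NBAS, a tether of vesicles from the Golgi, had 0.34 ± 0.168, the RNA helicase DDX1 0.37 ± 0.066 and the chromosome maintenance subunit SMC6 0.12 ± 0.0835. The retinol dehydrogenase RDH14 had 0.46 ± 0.129, the lysosomal membrane protein LAPTM4A 0.38 ± 0.119, the heparan sulfate proteoglycan SDC1 0.54 ± 0.105 and the translational repressor PUM2 0.42 ± 0.101. RHOB, a small GTPase of endosomes next to PUM2, was among the 3 lowest: it had 17.1, 25.2 and 25.4 CPM in fusion, 32.5, 34.9 and 35.8 CPM in slippage, 34.2, 28.2 and 31.2 CPM in cytokinesis failure and 20.4, 19.1 and 28.2 CPM in control. Fusion and control overlapped, at a log2 fold change of -0.003 ± 0.157, while slippage lay above both.

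Between 23.7 and 27.4 Mb, the lowest gene was DNMT3A, a DNA methyltransferase, with 16.4, 15.2 and 14.3 CPM in fusion, 16.4, 16.4 and 16.2 CPM in slippage, 17.3, 19.2 and 19.3 CPM in cytokinesis failure and 19.5, 19.4 and 19.0 CPM in control. Its log2 fold change was -0.34 ± 0.154, and its 3 fusion libraries lay below its 3 control libraries. The chromatin proteins ATAD2B, NCOA1 and ASXL2 had 0.11 ± 0.21, 0.15 ± 0.151 and 0.15 ± 0.111. The endocytic scaffold ITSN2 had 0.36 ± 0.106, the vesicle GTPase RAB10 0.25 ± 0.0696, CAD 0.31 ± 0.092, the mitochondrial membrane protein MPV17 0.36 ± 0.254 and EIF2B4, a subunit of the exchange factor that recharges a translation initiation factor, 0.12 ± 0.107. The protein phosphatase PPM1G had 421, 414 and 389 CPM in fusion, 291, 293 and 273 CPM in slippage, 315, 296 and 308 CPM in cytokinesis failure and 324, 326 and 293 CPM in control, a log2 fold change of 0.38 ± 0.0543.

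HADHA and HADHB, in the same stretch, encode the alpha and beta subunits of the mitochondrial trifunctional protein, which carries out the last steps of long-chain fatty acid oxidation. HADHA had 145, 153 and 167 CPM in MDA-MB-231 fusion, 125, 120 and 105 CPM in slippage, 116, 128 and 130 CPM in cytokinesis failure and 116, 118 and 123 CPM in control, a log2 fold change of fusion over control of 0.38 ± 0.0719. HADHB had 63.0, 60.5 and 56.1 CPM in fusion, 50.1, 51.8 and 60.2 CPM in slippage, 54.7, 54.9 and 48.9 CPM in cytokinesis failure and 52.3, 48.8 and 47.7 CPM in control, a log2 fold change of 0.27 ± 0.098. For each of the pair, all fusion libraries lay above all control libraries.

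The pair is read from starts 307 bases apart, and their windows (HADHA at chr2:26244583-26244882 on the minus strand, HADHB at chr2:26244689-26244988 on the plus strand) share 194 bases. They are shown because the genes of these complex partners have most of their upstream stretch in common. Capitals mark GGGCGG or, on the other strand, CCGCCC.
HADHA: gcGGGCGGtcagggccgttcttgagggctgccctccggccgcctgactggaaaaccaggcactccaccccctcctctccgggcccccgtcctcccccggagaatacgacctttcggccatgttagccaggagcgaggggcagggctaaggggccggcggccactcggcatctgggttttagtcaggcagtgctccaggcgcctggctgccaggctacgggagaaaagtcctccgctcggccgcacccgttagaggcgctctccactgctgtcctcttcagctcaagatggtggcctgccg
HADHB: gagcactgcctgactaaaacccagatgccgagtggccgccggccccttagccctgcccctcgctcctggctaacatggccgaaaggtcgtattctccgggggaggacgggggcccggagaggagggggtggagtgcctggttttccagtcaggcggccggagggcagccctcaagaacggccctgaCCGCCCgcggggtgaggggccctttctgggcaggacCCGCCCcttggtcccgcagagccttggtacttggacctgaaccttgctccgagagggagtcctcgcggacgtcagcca

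RefSeq windows were found for 55 of the 59 genes. GGGCGG on either strand stood in 44 of the 55, against 71.8% of the windows of tested genes and 44.6% of all windows. CCAAT on either strand stood in 32.7%, against 37.0% of tested and 35.7% of all windows. CCGGAAG stood in 21.8%, against 20.6% of tested and 10.7% of all windows. CACGTG, which reads the same on both strands, stood in 7.27%, against 10.4% of tested and 7.43% of all windows. The median GC content of the windows was 69.7% for these 55 genes, 65.7% for tested genes and 58.3% for all genes. A match only says that these letters stand in the window.

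Between 32.4 and 39.1 Mb lay 5 chosen genes, whose median of 0.12 was the lowest of the windows that held them, while all 37 tested genes of that window had 0.27. BIRC6, a giant ubiquitin ligase that blocks cell death, had 0.27 ± 0.112, the scaffold STRN 0.31 ± 0.131 and the kinase PRKD3 0.12 ± 0.105. CRIM1, a membrane protein that binds bone morphogenetic proteins, had 263, 251 and 242 CPM in fusion, 158, 173 and 169 CPM in slippage, 201, 175 and 171 CPM in cytokinesis failure and 231, 247 and 231 CPM in control. Its fusion and control libraries overlapped, at 0.09 ± 0.0615, and both lay above slippage and cytokinesis failure. SOS1, which loads Ras with GTP, had 37.1, 38.6 and 39.7 CPM in fusion, 41.0, 43.5 and 37.0 CPM in slippage, 42.0, 37.5 and 44.9 CPM in cytokinesis failure and 43.7, 40.0 and 40.1 CPM in control, a log2 fold change of -0.10 ± 0.11.

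Between 42.2 and 58.2 Mb, the microtubule-binding EML4 had 0.17 ± 0.0919, the peptidase-like PREPL 0.31 ± 0.115 and the mismatch repair subunit MSH6 0.45 ± 0.0735. CALM2, one of several genes for calmodulin and the most abundant of the 59, had 1330, 1280 and 1240 CPM in fusion, 1150, 1150 and 1210 CPM in slippage, 1040, 1030 and 1040 CPM in cytokinesis failure and 1020, 1060 and 1050 CPM in control, a log2 fold change of 0.30 ± 0.041. SPTBN1, a beta-spectrin of the membrane skeleton, had 409, 416 and 432 CPM in fusion, 340, 355 and 341 CPM in slippage, 366, 353 and 348 CPM in cytokinesis failure and 383, 337 and 340 CPM in control, a log2 fold change of 0.25 ± 0.0529. For CALM2 and SPTBN1 alike, fusion did not overlap any other group.

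RTN4, a reticulon that shapes the endoplasmic reticulum, had 1090, 1060 and 1040 CPM in fusion, 788, 751 and 769 CPM in slippage, 793, 786 and 784 CPM in cytokinesis failure and 806, 773 and 803 CPM in control, a log2 fold change of 0.42 ± 0.0423. Its fusion libraries stood above the other 9, which lay within a narrow range. PNPT1, an RNA-degrading enzyme of mitochondria, had 0.15 ± 0.0909 and the kinase VRK2 0.24 ± 0.126.

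Between 60.9 and 70.1 Mb, the NF-kappa-B subunit REL had 0.35 ± 0.242, the deubiquitinase USP34 0.32 ± 0.103, the nuclear export receptor XPO1 0.21 ± 0.0652 and the secretory GTPase RAB1A 0.47 ± 0.0767. ACTR2, a subunit of the complex that branches actin filaments, had 0.35 ± 0.056, the calcineurin subunit PPP3R1 0.54 ± 0.121 and the endocytic kinase AAK1 0.17 ± 0.0799. PCBP1, an intronless RNA-binding protein gene and the last of the 59 by position (70087477 to 70089203), had 341, 354 and 353 CPM in fusion, 268, 260 and 281 CPM in slippage, 316, 264 and 294 CPM in cytokinesis failure and 277, 285 and 276 CPM in control, a log2 fold change of 0.32 ± 0.0571. All 3 fusion libraries exceeded all others, and the value was near the median of the 59.

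Other genes of the arm showed how far single genes could leave this level. Among the tested 2p genes outside the list with a mean of at least 5 log2 CPM, YPEL5, WDR54 and LTBP1 were the highest, at 0.77 ± 0.118, 0.66 ± 0.0859 and 0.61 ± 0.079. YPEL5 had 50.2, 43.2 and 43.1 CPM in fusion, 34.3, 36.2 and 41.8 CPM in slippage, 31.7, 32.8 and 32.8 CPM in cytokinesis failure and 28.1, 27.2 and 24.4 CPM in control, so that all 9 doubled libraries lay above the controls. LTBP1, which binds latent TGF-beta, was not highest in fusion: it had 94.8, 98.0 and 93.1 CPM there, 103, 112 and 103 CPM in slippage, 98.8, 103 and 100 CPM in cytokinesis failure and 64.0, 57.9 and 65.6 CPM in control. CYP1B1, a cytochrome P450 that oxidises steroids and aromatic hydrocarbons, was the lowest: it had 294, 295 and 241 CPM in fusion, 381, 337 and 347 CPM in slippage, 396, 376 and 412 CPM in cytokinesis failure and 426, 449 and 433 CPM in control, a log2 fold change of -0.65 ± 0.0621. CYP1B1 lay at 38.1 Mb, inside the raised stretch, and was lower in fusion than in every other MDA-MB-231 library.

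Relatives of the 59 genes on other chromosomes or on 2q offered a comparison by function. For 31 of the 59, 43 pairs with such a paralog were formed. The 43 paralogs had a median log2 fold change of -0.00503 in MDA-MB-231 fusion over control. Of them, 3 were called higher and 2 lower, that is 6.98% and 4.65%, where 9.34% and 8.11% of all tested genes were. The 2p gene had the larger value in 40 of 43 pairs. The 31 partners of 11 of the genes in protein complexes had a median of 0.05, with 7 called higher and 7 lower. Each count was 22.6% of the partners, above the shares of all tested genes. The 2p gene had the larger value in 28 of 31 pairs. As the 2p genes were chosen on this difference, these counts are descriptions.

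CALM3, on chromosome 19, encodes calmodulin like CALM2. CALM3 had 490, 544 and 578 CPM in MDA-MB-231 fusion, 493, 530 and 473 CPM in slippage, 590, 476 and 466 CPM in cytokinesis failure and 582, 550 and 507 CPM in control. Its groups overlapped, with a log2 fold change of -0.02 ± 0.0943, beside 0.30 ± 0.041 for CALM2. In PPP3R1, the calcineurin regulatory subunit with 0.54 ± 0.121, the catalytic partners PPP3CA and PPP3CB had -0.05 ± 0.0577 and 0.06 ± 0.148. The exceptions included PCBP2, the paralog of PCBP1 on chromosome 12, with 0.29 ± 0.0527, and TRIB3, on chromosome 20, with 0.92 ± 0.161 beside 0.18 ± 0.102 for TRIB2. PCBP1 and PCBP2 are alike in sequence, so how their reads were divided is uncertain. The division of reads was not tested for this pair or for any other, CALM2 and CALM3 included.

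**Figure D3:**
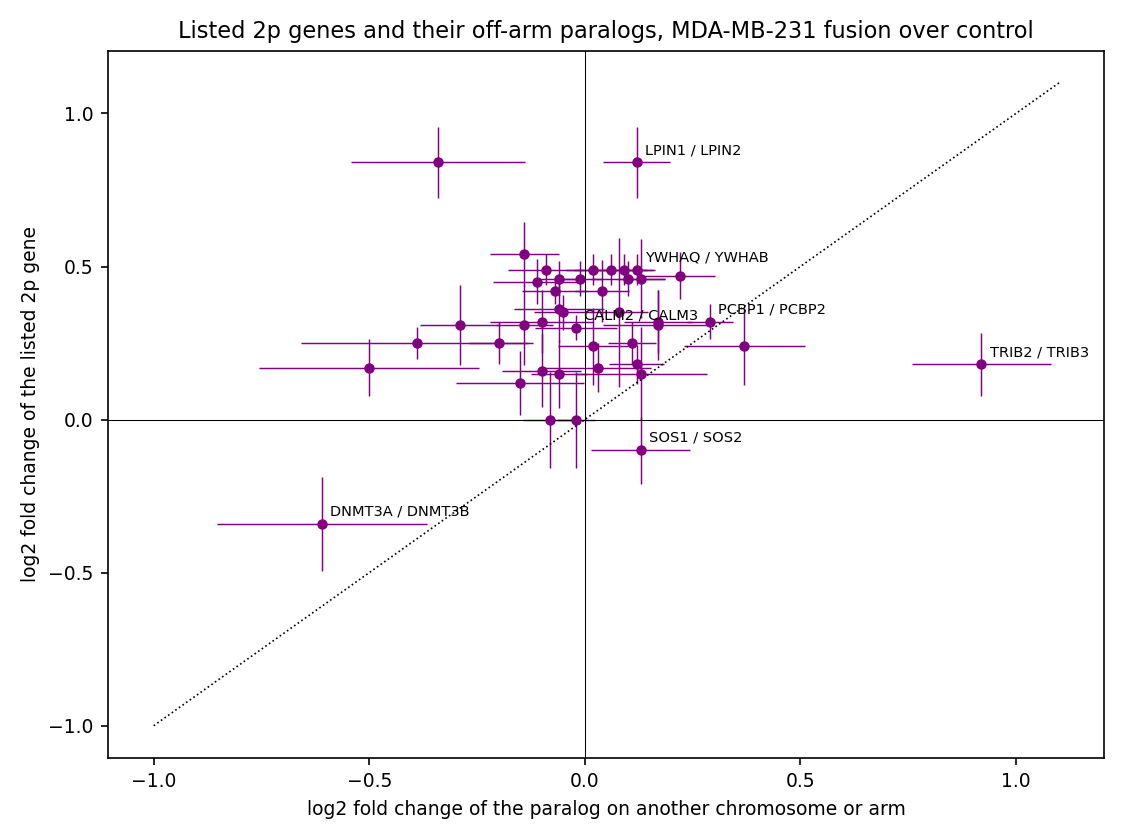
Log2 fold change of MDA-MB-231 fusion over control for a 2p gene (y axis) and for its paralog on another chromosome or arm (x axis), 43 pairs, each with its SE in both directions; the dotted line marks equal values. Most points lie above it, with 40 of 43 pairs having the larger value for the 2p gene, and TRIB2 with TRIB3 lies far to the right.

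In MDA-MB-231 slippage and cytokinesis failure the 59 genes stayed near the level of control, in comparisons that share the 3 control libraries with the one used for the choice. In slippage over control their median log2 fold change was -0.03, with 2 called higher and 3 lower, where 3.27% of all tested genes were called higher and 2.91% lower. In cytokinesis failure over control it was -0.01, with 1 called higher and 1 lower, where 2.29% and 2.35% were. These shares of the 59 do not stand out from the background. CRIM1 was lower in both populations, at -0.50 ± 0.0633 in slippage (edgeR adjusted p = 4.73e-07) and -0.38 ± 0.0632 in cytokinesis failure (edgeR adjusted p = 6.6e-05), and these calls held under every alternative tried. Among the other slippage calls, RHOB was higher at 0.60 ± 0.142 (edgeR adjusted p = 0.00624) and CALM2 at 0.16 ± 0.041 (edgeR adjusted p = 0.00964), while CAD at -0.36 ± 0.0981 (edgeR adjusted p = 0.0174) and KLF11 at -0.65 ± 0.201 (edgeR adjusted p = 0.0444) were lower. ACTR2, at 0.21 ± 0.0563 (edgeR adjusted p = 0.0209), was the gene called higher in cytokinesis failure. These other calls did not hold when single libraries were left out. The edgeR adjusted p of RHOB was 0.0571 without control replicate 1 and 0.0718 without control replicate 2, and that of CALM2 was 0.0806 without control replicate 1 and 0.0601 without slippage replicate 3. That of CAD was 0.109 and 0.0724 without control replicates 2 and 3 and 0.15 without slippage replicate 3. That of KLF11 was 0.301 and 0.0821 without control replicates 2 and 3 and 0.0948 and 0.219 without slippage replicates 1 and 2. That of ACTR2 was 0.124 and 0.0874 without control replicates 1 and 2 and 0.102 without cytokinesis failure replicate 1. With slippage replicate 3 and cytokinesis failure replicate 1 both left out, the edgeR adjusted p was 0.115 for CAD and 0.0744 for ACTR2, and the median of the 59 genes was -0.0208 in slippage and -0.0271 in cytokinesis failure.

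Slippage set against cytokinesis failure used none of the libraries behind the choice. The median over the 59 genes was -0.03, with 2 called higher and 0 lower, where 2.1% of all tested genes were called higher and 1.08% lower. CALM2 was higher in slippage, at 0.17 ± 0.041 (edgeR adjusted p = 0.00877), and its slippage libraries (1150 to 1210 CPM) did not overlap those of cytokinesis failure (1030 to 1040 CPM). IAH1 had 28.9, 30.2 and 35.8 CPM in slippage and 19.3, 23.6 and 22.8 CPM in cytokinesis failure, beside 36.1, 37.7 and 36.0 CPM in fusion and 35.0, 32.5 and 21.9 CPM in control. Slippage over cytokinesis failure was a log2 fold change of 0.51 ± 0.145 (edgeR adjusted p = 0.0426). Without slippage replicate 3 the edgeR adjusted p of CALM2 was 0.0569 and that of IAH1 0.191. That of IAH1 was also 0.0782 without slippage replicate 2 and 0.117, 0.0768 and 0.1 without cytokinesis failure replicates 1, 2 and 3. On the 6 libraries alone, the edgeR adjusted p was 0.0521 for CALM2 and 0.0631 for IAH1. Without slippage replicate 3 and cytokinesis failure replicate 1 together, IAH1 had an edgeR adjusted p of 0.317, CALM2 stayed called and the median of the 59 genes was -0.0225. The window medians up to 80 Mb lay between -0.0389 and 0.0569, so no shift of the arm was seen between these populations.

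**Figure D4:**
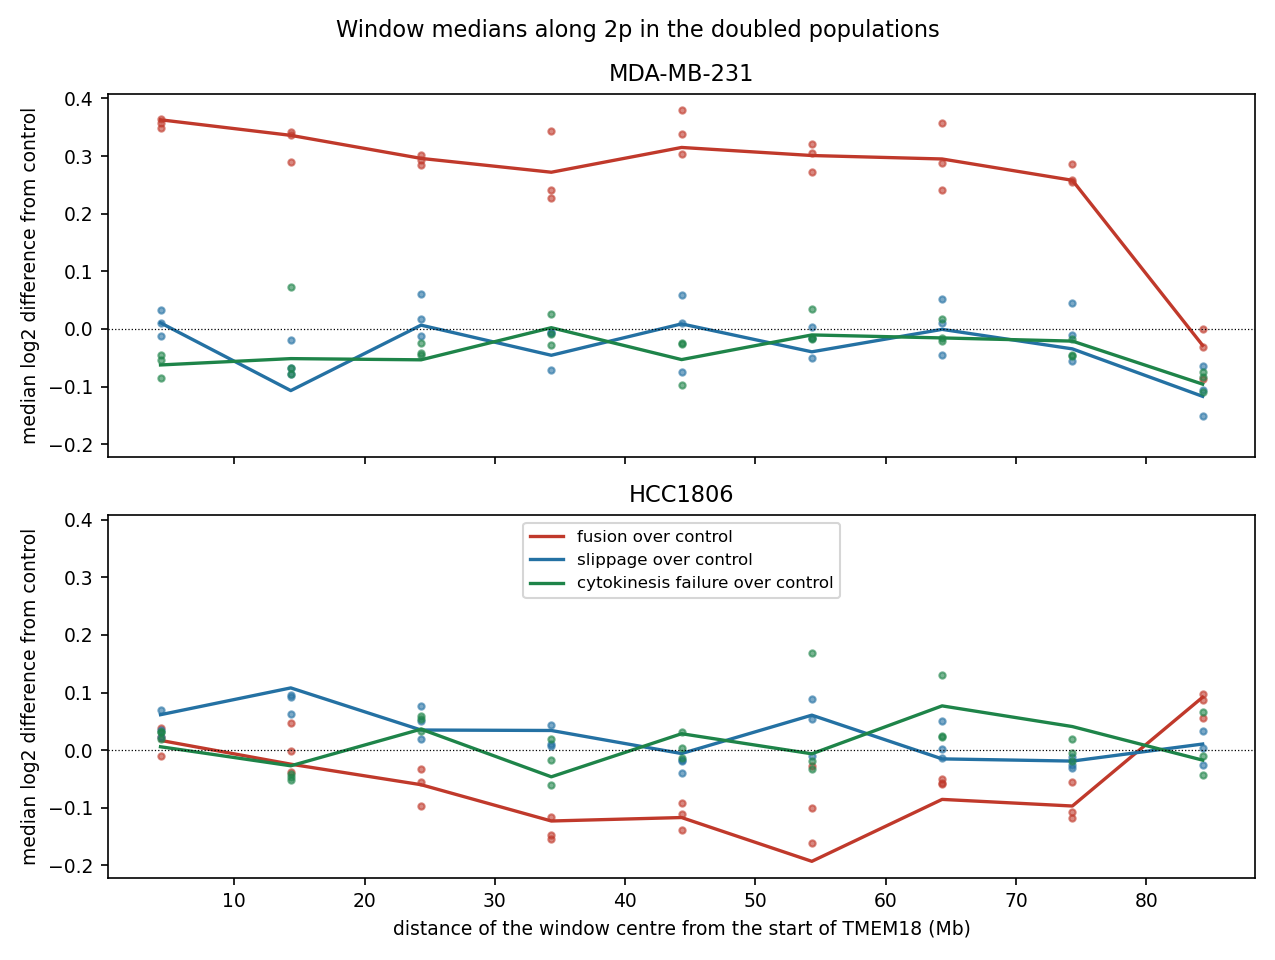
Median log2 difference from control over all tested genes in windows of 10 Mb (y axis) against the distance of the window's centre from the start of TMEM18 in Mb (x axis), for the doubled populations of each line; lines are fitted log2 fold changes and points are single libraries against the mean of the controls. In MDA-MB-231, fusion runs at 0.258 to 0.363 up to 80 Mb with slippage and cytokinesis failure near 0, and in HCC1806, fusion runs below 0 from 10 to 80 Mb, down to -0.193.

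HCC1806, whose libraries had no part in the choice, showed a small shift of the other sign in fusion. The median log2 fold change of the 59 genes in HCC1806 fusion over control was -0.08, and 12 of 59 were positive. Of the 59, 7 were called lower and 1 higher, that is 11.9% and 1.69%, where 5.55% of all 11467 tested genes were called lower and 5.33% higher. In 16 of the 59 all 3 fusion libraries lay below all 3 control libraries, where 13.3% of all tested genes did so. Over all 321 tested 2p genes the median was -0.08, with 38 called lower and 8 higher, and over 434 genes of 2q it was -0.01, with 21 lower and 24 higher.

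The window medians of HCC1806 fusion were nearer to 0 at the tip than further in. The window median was 0.02 between 0 and 10 Mb, -0.02 between 10 and 20 Mb and -0.06 between 20 and 30 Mb. It was -0.12 between 30 and 40 Mb, -0.12 between 40 and 50 Mb, -0.19 between 50 and 60 Mb (18 genes), -0.09 between 60 and 70 Mb and -0.10 between 70 and 80 Mb. Between 80 and 90 Mb it was 0.09. The lowest of these values, from 50 to 60 Mb, spread widely over the 3 fusion libraries, which gave -0.101, -0.162 and -0.0276. Spearman's rho between position and log2 fold change over the 59 genes was -0.464, across genes that share 6 libraries. A value near this size was also found without a shift of the arm: rho was -0.422 for MDA-MB-231 slippage against cytokinesis failure. For MDA-MB-231 cytokinesis failure over control it was 0.299.

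The 7 genes called lower in HCC1806 fusion lay between ODC1, at 10.4 Mb, and USP34, at 61.2 Mb. USP34 had 74.6, 73.4 and 79.5 CPM in fusion, 91.2, 97.1 and 87.4 CPM in slippage, 93.4, 95.2 and 100 CPM in cytokinesis failure and 106, 92.8 and 101 CPM in control, a log2 fold change of -0.40 ± 0.0719 (edgeR adjusted p = 1.7e-05). SPTBN1 had 200, 190 and 204 CPM in fusion, 230, 215 and 228 CPM in slippage, 235, 232 and 232 CPM in cytokinesis failure and 234, 237 and 231 CPM in control, a log2 fold change of -0.24 ± 0.0513 (edgeR adjusted p = 0.000315). Both were lower in all 3 fusion libraries than in any other HCC1806 library, and both calls held under every alternative tried.

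PNPT1 had 99.1, 121 and 120 CPM in HCC1806 fusion, 137, 130 and 130 CPM in slippage, 121, 120 and 122 CPM in cytokinesis failure and 145, 133 and 134 CPM in control, a log2 fold change of -0.28 ± 0.0654 (edgeR adjusted p = 0.00143). STRN had 98.8, 86.2 and 103 CPM in fusion, 117, 118 and 113 CPM in slippage, 126, 112 and 127 CPM in cytokinesis failure and 111, 124 and 117 CPM in control, a log2 fold change of -0.29 ± 0.0692 (edgeR adjusted p = 0.00199). Fusion and control did not overlap for either gene, but the edgeR adjusted p of PNPT1 was 0.0924 without fusion replicate 1 and that of STRN 0.0648 without fusion replicate 2. BIRC6 at -0.23 ± 0.0628, HADHB at -0.18 ± 0.0591 and ODC1 at -0.15 ± 0.0445 were the others called lower, and SDC1 at 0.20 ± 0.0651 was called higher. The edgeR adjusted p of BIRC6 was 0.0849 without control replicate 2 and 0.0767 without fusion replicate 2. That of ODC1 was 0.106 without control replicate 2 and 0.114 without fusion replicate 1. That of HADHB was 0.141 and 0.154 without control replicates 1 and 3, and 0.0816, 0.053 and 0.137 without fusion replicates 1, 2 and 3. That of SDC1 was 0.133 and 0.102 without control replicates 1 and 3, and 0.1, 0.065 and 0.0911 without fusion replicates 1, 2 and 3. HADHA, the partner of HADHB, had -0.03 ± 0.0491 and did not pass the test.

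ODC1 fell in each of the 3 doubled HCC1806 populations. It had 381, 396 and 408 CPM in fusion, 373, 378 and 366 CPM in slippage, 260, 294 and 300 CPM in cytokinesis failure and 434, 461 and 424 CPM in control. All 9 doubled libraries lay below the lowest control, and cytokinesis failure lay below all the rest. The log2 fold changes over the shared control were -0.15 ± 0.0445 in fusion (edgeR adjusted p = 0.0132), -0.24 ± 0.0447 in slippage (edgeR adjusted p = 0.000143) and -0.63 ± 0.0452 in cytokinesis failure (edgeR adjusted p = 7.76e-21). The slippage and cytokinesis failure calls held under every alternative tried, which the call in fusion did not. In MDA-MB-231 the 3 populations had 0.56 ± 0.0777, -0.11 ± 0.0797 and -0.12 ± 0.0802.

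In HCC1806 slippage over control the median of the 59 genes was 0.03, with 1 called higher and 1 lower, where 1.53% of all tested genes were called higher and 1.81% lower. Besides ODC1, the call was AAK1, with 95.5, 109 and 98.7 CPM in fusion, 120, 145 and 138 CPM in slippage, 135, 117 and 125 CPM in cytokinesis failure and 109, 115 and 120 CPM in control, a log2 fold change of slippage over control of 0.22 ± 0.0673 (edgeR adjusted p = 0.048). Slippage and control met at about 120 CPM. The adjusted p was 0.281 with DESeq2, and in edgeR it was 0.267, 0.122 and 0.067 without control replicates 1, 2 and 3 and 0.352 and 0.208 without slippage replicates 2 and 3.

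In HCC1806 cytokinesis failure over control the median was -0.02, with 2 called higher and 8 lower, where 8.37% of all tested genes were called higher and 8.63% lower. Beside ODC1, HPCAL1 had 13.9, 12.2 and 15.5 CPM in fusion, 14.4, 10.8 and 14.7 CPM in slippage, 12.7, 10.7 and 10.6 CPM in cytokinesis failure and 18.8, 16.9 and 17.3 CPM in control, a log2 fold change of cytokinesis failure over control of -0.64 ± 0.169 (edgeR adjusted p = 0.00374) that held under every alternative tried. PPP3R1 had 48.4, 57.2 and 49.4 CPM in fusion, 51.7, 51.0 and 51.6 CPM in slippage, 40.3, 43.8 and 47.9 CPM in cytokinesis failure and 55.0, 55.0 and 54.6 CPM in control, a log2 fold change of cytokinesis failure over control of -0.32 ± 0.0911 (edgeR adjusted p = 0.00841, and 0.0824 without cytokinesis failure replicate 1). NOL10 had 102, 93.5 and 90.8 CPM in fusion, 107, 109 and 98.0 CPM in slippage, 89.4, 75.1 and 85.2 CPM in cytokinesis failure and 96.6, 101 and 94.9 CPM in control, a log2 fold change of cytokinesis failure over control of -0.22 ± 0.0702 (edgeR adjusted p = 0.0167, 0.177 without cytokinesis failure replicate 2 and 0.0679 without control replicate 2).

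The other genes called lower in HCC1806 cytokinesis failure were PPM1G at -0.11 ± 0.0366, PNPT1 at -0.19 ± 0.0632, TRIB2 at -0.64 ± 0.234 and DDX1 at -0.17 ± 0.0616, and HADHA was called higher at 0.13 ± 0.0479. These calls did not hold when single libraries were left out. The edgeR adjusted p of PPM1G was 0.15 without cytokinesis failure replicate 1 and 0.0641 and 0.0559 without control replicates 1 and 3. That of PNPT1 was 0.0867, 0.0818 and 0.0656 without cytokinesis failure replicates 1, 2 and 3 and 0.199 and 0.0535 without control replicates 1 and 3. That of TRIB2 was 0.0971, 0.121 and 0.0754 without cytokinesis failure replicates 1, 2 and 3 and 0.122 and 0.113 without control replicates 2 and 3. That of DDX1 was 0.291 and 0.0787 without cytokinesis failure replicates 1 and 3 and 0.127, 0.11 and 0.0773 without control replicates 1, 2 and 3. That of HADHA was 0.206, 0.0643 and 0.0529 without cytokinesis failure replicates 1, 2 and 3 and 0.129 and 0.157 without control replicates 1 and 2. HADHB had the same log2 fold change as HADHA, 0.13 ± 0.0565, without passing the test.

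CRIM1 was called higher in HCC1806 cytokinesis failure at 0.23 ± 0.0567 (edgeR adjusted p = 0.00157), with 132, 143 and 141 CPM in fusion, 167, 161 and 165 CPM in slippage, 180, 174 and 173 CPM in cytokinesis failure and 146, 152 and 151 CPM in control, and held under every alternative tried. CRIM1 thus had opposite signs in the 2 lines, with lower values in the MDA-MB-231 population after cytokinesis failure, and the difference between the lines was not tested.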

How the data were processed

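Per the labels' protocols, polyadenylated RNA of 24 cell line samples was read by TAGseq (single reads, NextSeq 2000), and per the submitters' processing notes the tools were STAR and Salmon on GRCh38 (hg38), with no versions given. The deposited tables hold estimated counts (4.41% of values not whole) and TPM per gene for all samples. Strand handling and pooling are not given in the sources used here. The members and gene lists were chosen with earlier results of these data known.

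Estimated counts were rounded and each line's 12 libraries were fitted together in edgeR 4.0.16 (filterByExpr, TMM, robust quasi-likelihood test, Benjamini-Hochberg adjustment, R 4.3.3), leaving 11424 genes in MDA-MB-231 and 11467 in HCC1806, with all 59 members in each. A gene is called at an adjusted p below 0.05. SE is the log2 fold change divided by the square root of F, and CPM values are TMM-scaled. Alternatives were DESeq2 1.42.0, RLE scaling, limma-trend 3.58.1 on TPM in log2 with 1 or 0.1 added, keeping every gene with a count, requiring 50 counts in 3 libraries, the 6 libraries of a comparison alone, a replicate block, leaving out each replicate, and leaving out together the noisier MDA-MB-231 slippage replicate 3 and cytokinesis failure replicate 1. Of 29744 genes, 24915 were placed with RefSeq GRCh38.p14 positions, and 2p was taken as chromosome 2 up to 94 Mb. Stretches ending at 86 and 210 Mb were chosen after seeing the values.

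Genes named with values in every sample of the line concerned were the 6 most abundant members in MDA-MB-231, the 3 largest and 3 smallest fold changes, the first and last by position, HADHA, HADHB, CALM2 with CALM3, the highest and lowest 2p genes outside the list, and up to 4 called members with the smallest adjusted p in each HCC1806 comparison and in MDA-MB-231 slippage against cytokinesis failure. ODC1, CRIM1 and LTBP1 in MDA-MB-231, NOL10 in HCC1806, the ITGB1BP1 and CPSF3 windows and the genes at the step were added after their values were seen. Replicate pairs differed by more than counting noise (chi-square per degree of freedom 1.3 to 2.45 over 24 pairs). Whether replicates came from separate cultures is not stated beyond the label, so p-values measure the spread between these samples. The biological coefficient of variation was 5.28% in MDA-MB-231 and 3.88% in HCC1806. The test was also run on simulated counts with known changes and the same spread set for every gene. The outcome of that run is not given here, and nothing is drawn from it. 1 gene that this rule names is not reported here.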

Additional observations from a re-analysis of the deposited data

Results flagged for a closer look

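The 59 genes of 2p moved in opposite directions in the fusion populations of the 2 lines. In MDA-MB-231 fusion the median log2 difference from the mean of the controls was 0.306, 0.306 and 0.3 in replicates 1, 2 and 3, and in HCC1806 fusion it was -0.0574, -0.0683 and -0.0579. Over all tested 2p genes it was 0.278, 0.288 and 0.266 in the MDA-MB-231 fusion libraries and -0.0765, -0.0558 and -0.076 in the HCC1806 fusion libraries. Every MDA-MB-231 fusion library lay above the controls of its line and every HCC1806 fusion library below those of its line. The difference between the lines was not tested, and the MDA-MB-231 values carry the choice of the genes.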

How the results depend on the processing

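No called value changed sign under any alternative, but medians near 0 did: the 2p median of MDA-MB-231 slippage against cytokinesis failure was 0.0188 in the edgeR fit, that of HCC1806 slippage 0.014, and the median of the 59 genes in HCC1806 cytokinesis failure -0.0183, each with the other sign in limma on TPM. The first of these and the median of the 59 genes in HCC1806 slippage, 0.0346, also changed sign when 1 library was left out. Under limma on TPM, the median of all genes in MDA-MB-231 fusion over control was -0.121 with a pseudocount of 0.1 and -0.105 with 1, and relative to it the 59 genes stood at 0.304 and 0.259, against 0.315 in the edgeR fit. On the values as fitted, with pseudocounts 0.1 and 1, the median of the 59 genes in MDA-MB-231 fusion was 0.182 and 0.154 (17 called in each) and that of 2p 0.157 and 0.139. In MDA-MB-231 slippage over control it was -0.0591 for the 59 genes (0.1 only), and -0.0522 and -0.0475 for 2p, with 1 called in each. In MDA-MB-231 cytokinesis failure 1 was called in each. In slippage against cytokinesis failure 0 were called in each, with 2p at -0.0133 and -0.0124. In HCC1806 fusion the 59 genes had -0.109 and -0.107 (2 called in each) and 2p -0.123 and -0.107. In HCC1806 slippage they had 0.00124 and 0.00118 (1 called in each) and 2p -0.0133 and -0.0124. In HCC1806 cytokinesis failure they had 0.039 and 0.0312 (3 called in each) and 2p 0.0601 and 0.0501. The cause was not tested.

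With DESeq2 the called members were 3 in MDA-MB-231 slippage, 1 in slippage against cytokinesis failure, and 4, 1 and 4 in HCC1806 fusion, slippage and cytokinesis failure. Slippage against cytokinesis failure had 0 on the 6 libraries alone and 1 without both noisier libraries (slippage replicate 3 and cytokinesis failure replicate 1), and HCC1806 slippage had 1 on the 6 libraries alone, with RLE scaling and with the stricter filter. With no filter the 2p median was 0.245 in MDA-MB-231 fusion, -0.00575 in slippage, -0.0188 in cytokinesis failure, 0.0 in slippage against cytokinesis failure and 0.0 in HCC1806 cytokinesis failure. With the stricter filter it was -0.0111 in MDA-MB-231 slippage and 0.00872 in HCC1806 cytokinesis failure. Over these settings the genes called in MDA-MB-231 fusion ran from 1197 to 2436, against 1993. They ran from 161 to 855 in slippage (706), from 175 to 605 in cytokinesis failure (530) and from 65 to 462 in slippage against cytokinesis failure (363). In HCC1806 they ran from 630 to 1335 in fusion (1247), from 84 to 402 in slippage (382) and from 975 to 1960 in cytokinesis failure (1950).

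The replicate numbers did not pair the samples: over 24 same-numbered pairs the correlation of deviations ran from -0.191 to 0.0884. With the replicate block, 1 member was called in MDA-MB-231 slippage against cytokinesis failure and 1 in HCC1806 slippage, each 1 fewer, and no other count of called members moved by over 1.5 times.

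Window medians of MDA-MB-231 fusion from 0 to 80 Mb ran from 0.0345 to 0.443 in steps of 5 Mb. The lowest was the last window, with 3 genes, EVA1A, MRPL19 and GCFC2, at 75.5 to 75.7 Mb. The medians had a lowest value of 0.279 in steps of 20 Mb, and ran from 0.276 to 0.382 with only genes of at least 5 log2 CPM.

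Leaving out each replicate in turn, the called members in MDA-MB-231 fusion ran from 26 to 30, the median of the 59 genes from 0.287 to 0.337 and that of 2p from 0.272 to 0.295. In MDA-MB-231 slippage 2 to 4 were called (3 without control replicate 1 or 3 or slippage replicate 3, 2 without control replicate 2), with 2p from -0.0218 to -0.0131. In cytokinesis failure 1 to 4 were called (4 without control replicate 3, 1 without control replicate 1 or 2 or cytokinesis failure replicate 1). In slippage against cytokinesis failure 0 to 2 were called (0 without slippage replicate 3, 1 without slippage replicate 2 or any cytokinesis failure replicate), with 2p from -0.000458 to 0.0354. In HCC1806 fusion 4 to 8 were called (4 without fusion replicate 1), with the 59 genes from -0.0851 to -0.0535. In HCC1806 slippage 1 to 2 were called (1 without any control replicate or slippage replicate 2 or 3), with the 59 genes from -0.00706 to 0.0349. In HCC1806 cytokinesis failure 4 to 8 were called (4 without cytokinesis failure replicate 1, 6 without any control replicate or cytokinesis failure replicate 3), with 2p from 0.00916 to 0.0267. Depth limits what single genes show: in MDA-MB-231 fusion over control the SE was 0.254 for MPV17 and 0.242 for REL, against a median SE of 0.101 over the 59.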
